A study of Mus musculus with 6 samples.

Results

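The proteasome genes of lymph-node mast cells were taken by symbol, as every row of the deposited table that begins with Psma, Psmb, Psmc, Psmd, Psme, Psmf or Psmg followed by a digit. The interferon-induced subunits Psmb8, Psmb9 and Psmb10 and pseudogene names were left out. The rule found 47 of the 17890 genes in the table. One of these, Psmc3ip, shares the letters only. It encodes a partner of the recombination machinery and no proteasome part, its 1 to 11 reads per library did not pass the expression filter, and it is not described further. The other 46 genes passed the filter and were tested.

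RNA was sequenced from mast cells of mouse lymph nodes, 3 libraries from uninvolved nodes (uLN) and 3 from nodes holding tumour metastases (mLN). The sources used here do not give the strain, age or tumour, nor how the mast cells were isolated, and no genetic change or treatment is named for either group. Nothing in the labels says that the libraries of a group came from separate animals, so p-values reflect only how these libraries vary, and that variation may be technical. The 1 comparison is mLN against uLN.

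The proteasome breaks down proteins that carry ubiquitin chains. Its core particle is a stack of rings, with alpha subunits (Psma) on the outside, which gate the entrance, and beta subunits (Psmb) inside, which hold the cutting sites. A regulatory particle caps the core. The base of the cap has a ring of ATPases (Psmc) that unfold and push in substrates, and its lid (most Psmd) holds the enzyme that removes ubiquitin. Other activators (Psme) open the core without needing ubiquitin, and dedicated chaperones (Psmg, some Psmd) build the particle. Mature particles hold the standard subunits in fixed proportion. In cells of the immune system interferon replaces the cutting subunits by Psmb8, Psmb9 and Psmb10.

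The libraries held 17643916 to 17799420 estimated counts. All 7 mast cell markers were found in each library, with summed levels of 32399 to 33736 CPM (read counts scaled to a common library size, with TMM factors) in uLN and 26148 to 28221 in mLN. Of the 7, 5 were lower and 1 higher in mLN. Kit was at 7538 to 7891 CPM in uLN and 3086 to 3173 in mLN, and Tpsb2 at 3063 to 3342 and 6334 to 6795. Markers of T cells summed to at most 5.22 CPM and of B cells to at most 0.723. Macrophage and dendritic cell markers summed to 129 to 176 CPM in uLN and 222 to 253 in mLN, with 3 of 7 tested genes higher and 3 lower. Fibroblast and keratinocyte markers peaked in mLN replicate 1, at 108 and 155 CPM, against 5.11 to 14.0 and 6.15 to 15.0 in uLN. The lowest mLN sums were 12.7 and 15.5 CPM. In mLN replicate 3, Krt5 had 25.7 CPM against 4.37 to 11.6 in uLN, and Col1a1 14.5 against 1.95 to 7.90. In that library Col1a2, Col3a1, Dcn, Krt6a, Krt14 and Dsp were also above their uLN range, as were Krt8 and Epcam at 0.115 CPM. Only Pdgfra, Pdpn and Krt18 of these lists were within it. No marker found in the table was at 0 in all 6 libraries. The T cell gene Cd3g and the B cell genes Ms4a1 and Pax5 had at most 0.115 CPM in any library. Among the other lymphocyte markers Cd8a reached 2.54 CPM, Cd4 2.24 and Cd79a 0.493. Without mLN replicate 1, 25 proteasome genes were lower and 5 higher in mLN. The part of the macrophage markers in the results was not tested.

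More proteasome genes were lower than higher in mLN. Of the 46 tested, 27 fell, 5 rose and 14 were not called (edgeR's quasi-likelihood test, adjusted p under 0.05). Among all 12706 tested genes 34.2% were called lower and 33.2% higher. The median log2 fold change (mLN minus uLN) was -0.33 over the proteasome genes and -0.01 over all tested genes. Most changes were small. By at least 1.5-fold, 8 proteasome genes fell and 1 rose, beside 15.3% and 17.1% of all tested genes. With the coefficient of variation between libraries fixed at 0.2, a setting chosen after seeing the data, 8 were lower and 1 higher, beside 15.1% and 16.9%. In 31 of the 46 every mLN library lay below every uLN library, and in 5 every mLN library lay above, where all tested genes gave 37.3% and 35.6%. Summed over the 46 genes, the level was 2402, 2438 and 2461 CPM in uLN replicates 1, 2 and 3 and 2142, 2184 and 2135 CPM in mLN replicates 1, 2 and 3. The groups did not overlap in that sum. In bulk RNA, fewer cells of a type and less RNA per cell cannot be told apart.

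**Figure D1:**
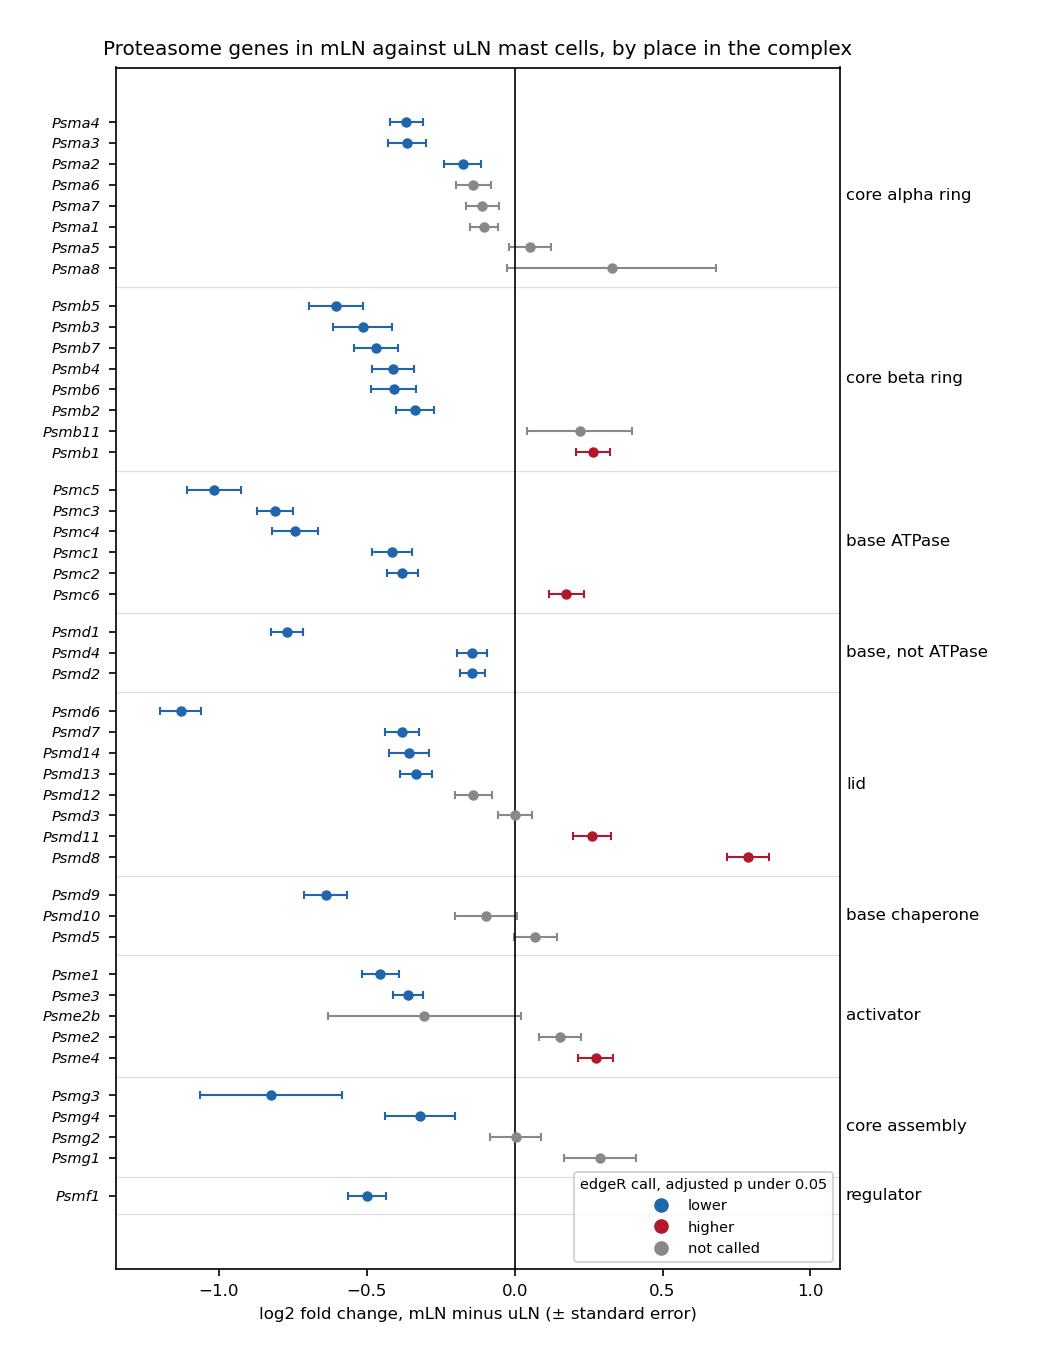
Log2 fold change of each of the 46 tested proteasome genes (points) with its standard error (bars), mLN minus uLN, grouped by place in the complex, with colours for the edgeR call. The 27 lower calls reach -1.13 for Psmd6, and the 5 higher calls reach 0.79 for Psmd8.

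Transcript length moved with the comparison over all genes. Tested genes whose reference transcript has up to 2000 bases had a median log2 change of -0.09, with 39.1% lower and 29.3% higher, and longer ones a median of 0.02. The median transcript of the tested proteasome genes has 1490 bases against 3014 for all tested genes. Of the 33 proteasome genes with up to 2000 bases 20 fell and 2 rose, with a median of -0.34. Of the 13 with longer transcripts 7 fell and 3 rose, with a median of -0.14, beside 32.6% lower and 35.2% higher among all longer tested genes. The part of transcript length in the result was not tested.

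In the core particle 9 of 16 genes fell and 1 rose, with a median log2 change of -0.26. Its summed level was 745, 774 and 777 CPM in the uLN libraries and 673, 693 and 631 in the mLN libraries. Beside 34.2% lower and 33.2% higher among all tested genes, the core had 56.3% lower and 6.25% higher. In the alpha ring 3 of 8 (37.5%) fell, near the share of all tested genes, and 0 rose (median -0.12). In the beta ring 6 of 8 (75.0%) fell and 1 (12.5%) rose (median -0.41). The difference between the rings was not tested.

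All 3 genes for the standard cutting subunits fell. Psmb5 encodes the chymotrypsin-like site, the main target of proteasome inhibitors. Its level was 27.0, 31.3 and 32.0 CPM in uLN replicates 1, 2 and 3 and 21.5, 20.0 and 17.9 CPM in mLN, so the groups lay well apart. It fell 1.52-fold, a log2 change of -0.61 ± 0.09 (SE, adjusted p = 0.000167). In GRCm38, Psmb5 (gene ID 19173) spans bases 54614120 to 54617995 of chromosome 14.

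Psmb7, which holds the trypsin-like site, was almost equal in the uLN libraries, at 35.3, 35.3 and 35.1 CPM, and lower in each mLN library, at 25.1, 28.0 and 23.2 CPM. It fell 1.38-fold (log2 change of -0.47 ± 0.08 SE, adjusted p = 0.000265). Psmb6, which holds the caspase-like site, had 40.9, 45.7 and 43.0 CPM in uLN and 35.7, 32.2 and 29.6 CPM in mLN. It fell 1.33-fold (log2 change of -0.41 ± 0.08 SE, adjusted p = 0.000806).

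Among the beta subunits without a cutting site, Psmb2, Psmb3 and Psmb4 fell 1.26-fold, 1.43-fold and 1.33-fold. Psmb3 had 48.3, 46.8 and 51.1 CPM in uLN and 36.9, 37.4 and 28.1 CPM in mLN, where replicate 3 was the lowest library. Psmb1 went the other way. It had 74.8, 81.7 and 77.3 CPM in uLN and 87.6, 97.6 and 95.6 CPM in mLN. Every mLN library was above every uLN library, and Psmb1 rose 1.20-fold (log2 change of 0.26 ± 0.06 SE, adjusted p = 0.00200). Psmb11, known as the thymus-specific cutting subunit, was at 3.04 to 3.72 CPM in uLN and 3.51 to 4.54 in mLN and was not called (adjusted p = 0.300). Part of its counts were not whole numbers, so its reads were shared with other features and its level is uncertain.

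**Figure D2:**
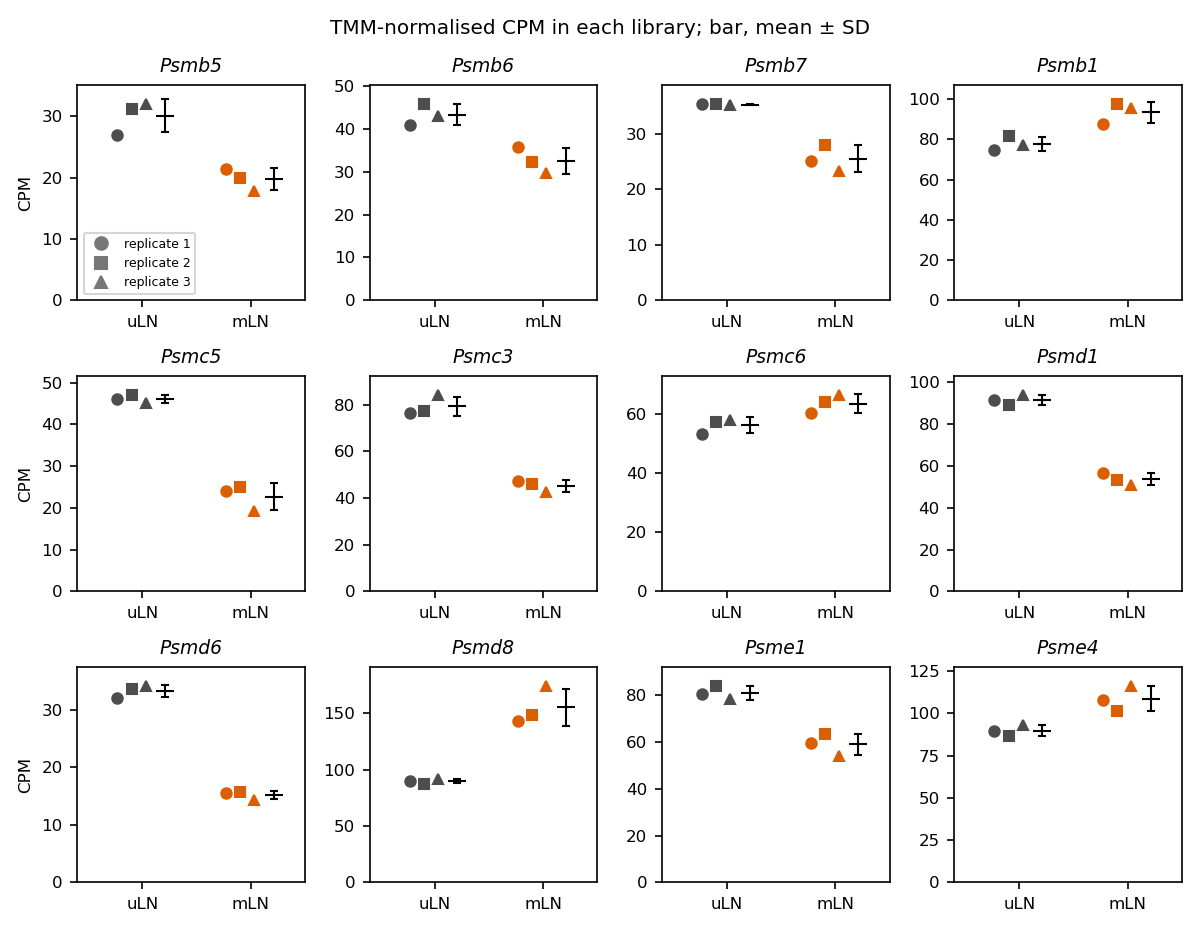
TMM-normalised CPM of 12 proteasome genes in each library (points, with shapes for the replicate number) with the mean and SD of 3 libraries beside them, each axis starting at 0. Psmb1, Psmc6, Psmd8 and Psme4 were higher in every mLN library and the other 8 lower.

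In the alpha ring, Psma4 fell from 50.5, 52.5 and 50.8 CPM to 41.9, 39.5 and 38.0 CPM (log2 change of -0.37 ± 0.06 SE, adjusted p = 0.000218). Psma3 fell from 64.4, 65.0 and 67.3 CPM to 54.4, 52.0 and 46.2 CPM (log2 change of -0.36 ± 0.06 SE, adjusted p = 0.000522). Both have counts that are not whole numbers in some libraries, so part of their reads were shared. Psma2 fell by 0.18 on the log2 scale, which did not pass in DESeq2 (adjusted p = 0.0792), with upper quartile factors or with library totals only. Leaving out uLN replicate 2 or 3, or mLN replicate 1 or 3, also ended this call. Psma1, Psma6 and Psma7 had log2 values of -0.10, -0.14 and -0.11 and were not called, although their groups did not overlap. Psma1 passed without mLN replicate 3, Psma6 without mLN replicate 2, and both with no expression filter. Psma5 overlapped between groups (log2 change of 0.05, adjusted p = 0.545). Psma8, known as the testis form of an alpha subunit, had 8 to 15 reads per library and was not called.

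In the base and lid 13 of 20 genes (65%) fell and 3 (15%) rose, with a median log2 change of -0.35. All tested genes gave 34.2% lower and 33.2% higher. The 20 genes include Psmd5, Psmd9 and Psmd10, chaperones that build the base. The log2 changes of the 20 ran from -1.13 to 0.79, and those of the core from -0.61 to 0.33. The summed level of the 20 was 1249, 1252 and 1267 CPM in uLN and 1095, 1112 and 1135 CPM in mLN.

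Of the 6 ATPases of the base 5 (83.3%) fell and 1 (16.7%) rose, beside 34.2% and 33.2% of all tested genes. The 6 form 1 ring with 1 copy of each. Psmc5 had 46.0, 47.0 and 45.0 CPM in uLN and 23.9, 25.1 and 19.2 CPM in mLN. That is a fall of 2.02-fold (log2 change of -1.02 ± 0.09 SE, adjusted p = 3.83e-06). Psmc3 had 76.3, 77.4 and 84.1 CPM in uLN and 47.3, 45.9 and 42.4 CPM in mLN and fell 1.75-fold (log2 change of -0.81 ± 0.06 SE, adjusted p = 1.20e-06). Psmc4, Psmc1 and Psmc2 fell 1.67-fold, 1.33-fold and 1.30-fold. In all 5 the groups were apart.

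Psmc6 alone of this ring was higher, at 53.1, 57.3 and 58.0 CPM in uLN and 60.1, 63.8 and 66.2 CPM in mLN (log2 change of 0.17 ± 0.06 SE, adjusted p = 0.0210). The rise is small. It missed the threshold when uLN replicate 1 (adjusted p = 0.114) or mLN replicate 2 (adjusted p = 0.0556) was left out, and when low genes were kept (adjusted p = 0.0620). The ratio of Psmc6 to Psmc5 within a library does not depend on scaling. It was 1.15, 1.22 and 1.29 in the uLN libraries and 2.51, 2.54 and 3.45 in the mLN libraries. This pair, and those of Psmd8 with Psmd6 and of Psmb1 with Psmb5, were chosen after their values were seen and are given without a test.

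The 3 other base subunits fell. Psmd1, a large scaffold protein, had 91.5, 89.1 and 93.8 CPM in uLN and 56.5, 53.4 and 50.9 CPM in mLN, a fall of 1.71-fold (log2 change of -0.77 ± 0.05 SE, adjusted p = 6.89e-07). Psmd2, the other scaffold, and Psmd4, a receptor for ubiquitin chains, fell by only 0.14 on the log2 scale each. The call of Psmd2 was lost without uLN replicate 2 (adjusted p = 0.0530). Psmd4 missed the threshold when uLN replicate 1, uLN replicate 2 or mLN replicate 1 was left out, in DESeq2 and with library totals as the only scaling.

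The lid held the largest change in each direction among the called proteasome genes. Psmd6, a structural subunit of the lid, had 32.0, 33.6 and 34.1 CPM in uLN and 15.4, 15.7 and 14.4 CPM in mLN. It fell 2.19-fold (log2 change of -1.13 ± 0.07 SE, adjusted p = 2.75e-07). Psmd8, another structural subunit, had 90.3, 87.7 and 91.5 CPM in uLN and 143, 148 and 174 CPM in mLN. It rose 1.73-fold (log2 change of 0.79 ± 0.07 SE, adjusted p = 4.20e-06). Both belong to the set of lid subunits that share the PCI fold and pack against each other. The ratio of Psmd8 to Psmd6 was 2.82, 2.61 and 2.69 in uLN and 9.27, 9.41 and 12.1 in mLN, a difference of 3.80-fold between the means. In GRCm38, Psmd6 (gene ID 66413) spans bases 14112185 to 14120945 of chromosome 14, and Psmd8 (gene ID 57296) bases 29174187 to 29180673 of chromosome 7.

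Psmd11, which contacts the core and the ATPase ring, rose from 82.7, 83.6 and 84.7 CPM to 91.6, 99.6 and 109.5 CPM (log2 change of 0.26 ± 0.06 SE, adjusted p = 0.00410). Psmd14, the enzyme that removes ubiquitin from substrates, and its partner Psmd7 fell 1.28-fold and 1.30-fold. Psmd13 fell 1.26-fold. Psmd12 had a log2 value of -0.14 and was not called (adjusted p = 0.0678), but passed without mLN replicate 3 and with no expression filter. Psmd3 was at 72.0 to 82.8 CPM in uLN and 77.3 to 79.0 in mLN, with a log2 value of 0.00 ± 0.06 (SE). Summed over the lid the groups were close, at 465 to 483 CPM in uLN and 483 to 529 in mLN, where Psmd8 made up 143 to 174 CPM of the mLN sum.

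**Figure D3:**
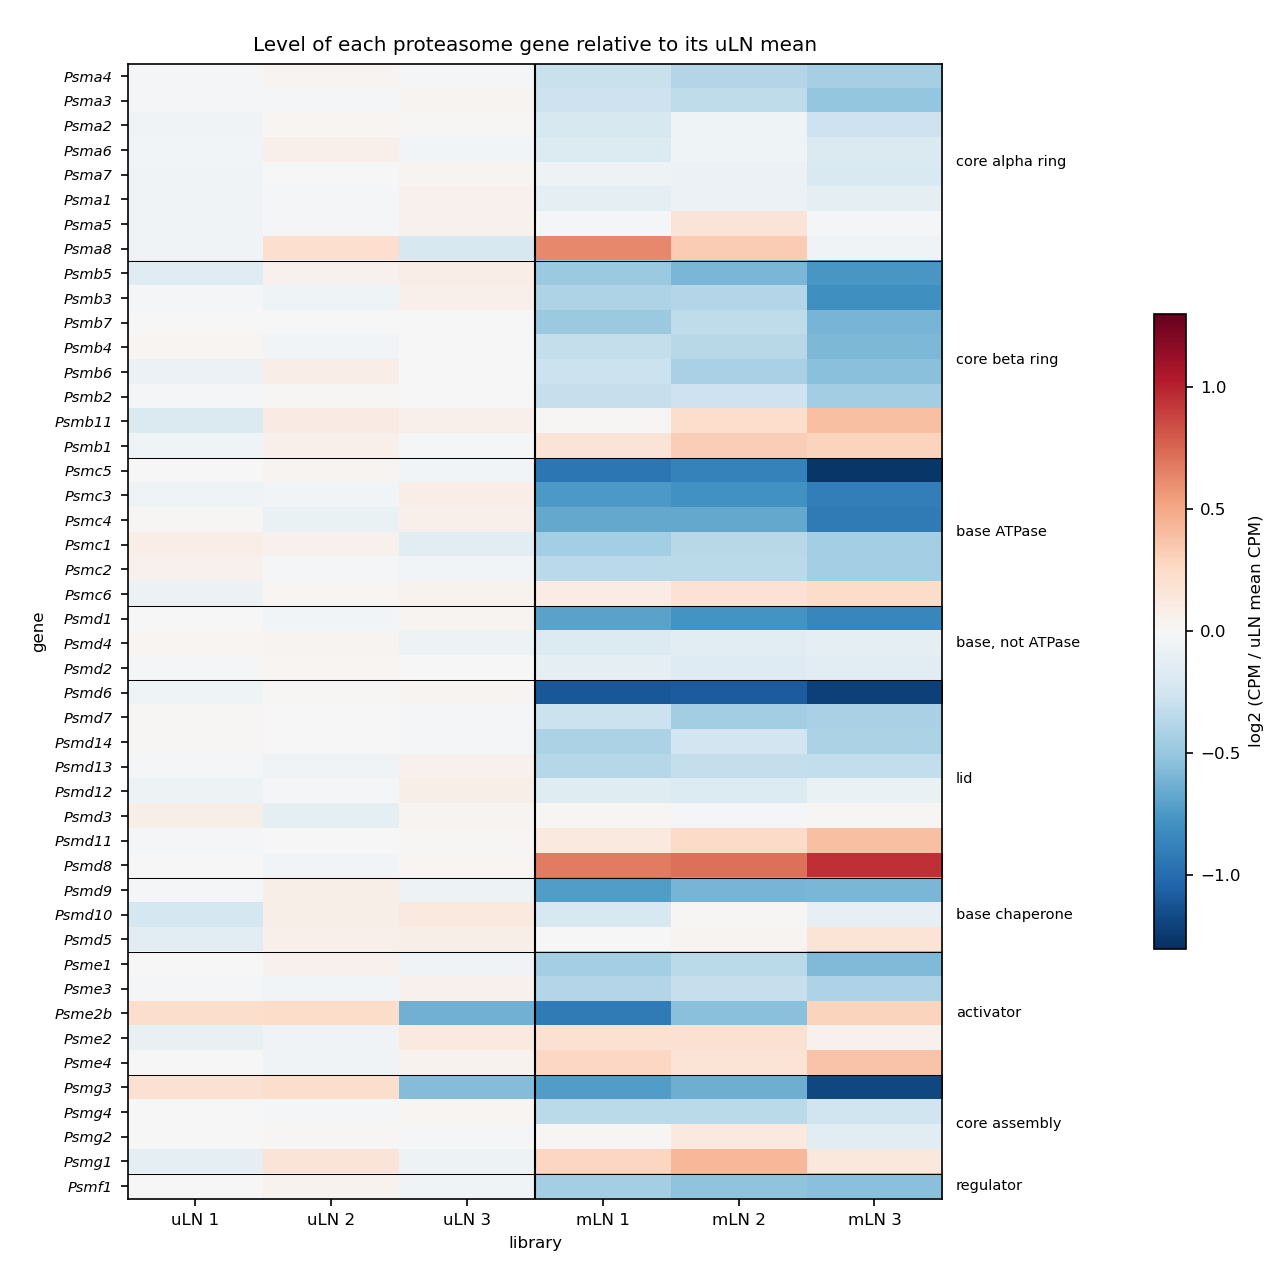
Level of each tested proteasome gene (rows, grouped by place in the complex) in each library (columns), as log2 of its CPM over its uLN mean, blue for lower and red for higher. Within the ATPase ring only Psmc6 is red in mLN, and within the lid Psmd6 and Psmd8 take opposite colours in all 3 mLN libraries.

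Promoter sequences were examined for what the genes share. RefSeq windows of 250 bases before to 50 after the gene start (GRCm38.p6) were found for 39 of the 47 genes. The counts here are over the 38 of these that were tested, without Psmc3ip. Those without one were Psma8, Psmb1, Psmb2, Psmb7, Psmc3, Psmd3, Psmd7 and Psmg2. The motif letters were chosen with the results known, and a match is a description, not a binding site. The letters CCGGAAG, the core bound by ETS factors, were found on either strand in 14 of 38 windows (36.8%), beside 9.93% of all genes with a window and 20.0% of the tested ones. Of the 14 genes with the letters, 8 fell and 3 rose, with a median log2 change of -0.14. Of 24 without them, 15 fell and 1 rose, with a median of -0.36. Psmc6, Psmd11 and Psme4, which rose, and Psmd6, which fell the most, all held them, and Psmd8 did not.

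These 30-base windows show the ETS letters in capitals on the gene's strand, for the genes with the largest fall and with a rise. Those letters begin 45 bases before the annotated start in Psmd6, 100 in Psmc6, 11 in Psmd11 and 53 in Psme4. In Psmd11 they are on the opposite strand.
Psmd6, chr14:14120972-14121001, minus strand: cagagacgcgaCCGGAAGtcagactggcgg
Psmc6, chr14:45329713-45329742, plus strand: aggcgggccagCCGGAAGgggcggagccag
Psmd11, chr11:80428593-80428622, plus strand: cgagggcgggtCTTCCGGgtgtgtgtttcc
Psme4, chr11:30771711-30771740, plus strand: gtggccccgccCCGGAAGtgacttgaggcc

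The 150 bases before the start of Psmd6 and Psmd8, the genes with the largest fall and rise, are shown in full, with CCGGAAG, TGACNNNGC and CCAAT on either strand in capitals. Only the ETS letters of Psmd6 appear, and the stretch of Psmd8 holds none of the 3.
Psmd6, chr14:14120946-14121095, minus strand: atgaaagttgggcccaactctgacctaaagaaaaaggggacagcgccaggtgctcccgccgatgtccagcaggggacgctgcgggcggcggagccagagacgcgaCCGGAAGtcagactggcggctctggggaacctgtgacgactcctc
Psmd8, chr7:29180674-29180823, minus strand: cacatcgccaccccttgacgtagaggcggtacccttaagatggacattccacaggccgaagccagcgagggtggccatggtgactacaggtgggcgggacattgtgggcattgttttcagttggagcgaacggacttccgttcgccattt

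The antioxidant response element core TGACNNNGC, read by NFE2L1 and NFE2L2 with small MAF partners, was in 6 of 38 windows (15.8%), beside 14.0% of all genes and 17.2% of the tested ones. The genes were Psmb5, Psmb6, Psmc6, Psmd9, Psmd12 and Psme4, of which 3 fell and 2 rose. The windows of the cutting subunits Psmb5 and Psmb6 are shown with these letters in capitals.
Psmb5, chr14:54618023-54618052, minus strand: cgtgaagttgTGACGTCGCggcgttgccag
Psmb6, chr11:70525338-70525367, plus strand: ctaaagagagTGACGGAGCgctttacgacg

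CCAAT was in 13 of 38 windows (34.2%, tested genes 43.3%). Of the other motifs, TTCCGG, which overlaps the ETS letters, was in 20 windows (52.6%, tested genes 31.0%), GGAAGTG in 8 (21.1% and 16.8%) and the looser TGANNNNGC in 21 (55.3% and 48.2%). CACGTG was in 3 windows (7.89% and 11.5%) and the motif of nuclear respiratory factor NRF1 in 2 (5.26% and 2.32%). The letters TGACTCA, the YY1 motif, TCTCGCGA, the ZNF143 motif and GGTGGCGG were in 1 window each (2.63%), against 4.71%, 2.36%, 2.47%, 4.50% and 5.37% of tested genes. TGACGTCA was in 0 (tested genes 3.48%). In all 14 motifs were searched on both strands.

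Of the chaperones that build the base, Psmd9 fell 1.56-fold, from 26.9 ± 1.37 to 17.3 ± 0.835 CPM (SD, n = 3, adjusted p = 2.35e-05). Part of its reads were shared with other features. Psmd5 and Psmd10 were not called, with log2 values of 0.07 and -0.10 and overlapping groups.

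Among the core assembly chaperones 2 of 4 (50%) fell and 0 rose, beside 34.2% and 33.2% of all tested genes. Psmg1 and Psmg2 form 1 dimer and Psmg3 and Psmg4 another, and both act on the alpha ring. Psmg3 had 6.13, 6.26 and 3.62 CPM in uLN and 3.23, 3.45 and 2.35 CPM in mLN, a narrow gap set by uLN replicate 3. It fell 1.77-fold (log2 change of -0.82 ± 0.24 SE, adjusted p = 0.0111), and the call was lost without uLN replicate 1 (adjusted p = 0.0532) or 2 (adjusted p = 0.0587). Psmg4 had 7.17, 7.11 and 7.35 CPM in uLN and 5.64, 5.67 and 6.03 CPM in mLN (log2 change of -0.32 ± 0.12 SE, adjusted p = 0.0343). The groups were apart, but with 102 to 128 reads per library the call ended when any 1 library other than mLN replicate 3 was left out, in DESeq2 and with the replicate block (adjusted p = 0.0604).

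Psmg1 had 7.80, 9.59 and 8.16 CPM in uLN and 10.4, 11.5 and 9.36 CPM in mLN. Its groups overlapped, since mLN replicate 3 lay below uLN replicate 2, and it missed the threshold (log2 change of 0.29 ± 0.12 SE, adjusted p = 0.0562). It passed without mLN replicate 3 (adjusted p = 0.0159) and without uLN replicate 2 (adjusted p = 0.0350), with the replicate block (adjusted p = 0.0465) and with RLE factors (adjusted p = 0.0474). Psmg2 was level, at 15.2, 15.4 and 15.1 CPM in uLN and 15.3, 16.6 and 13.8 CPM in mLN. Pomp, the chaperone that guides the beta ring, fell from 26.3 ± 1.13 to 19.6 ± 1.15 CPM (SD, n = 3, adjusted p = 0.000392).

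Of the 5 activators 2 (40.0%) fell and 1 (20.0%) rose, beside 34.2% and 33.2% of all tested genes. Psme1 and Psme2 encode the alpha and beta chains of the same activator ring, PA28, which interferon induces and which favours peptides for MHC class I. Psme1 had 80.5, 83.8 and 78.2 CPM in uLN and 59.4, 63.3 and 54.1 CPM in mLN, and fell 1.37-fold (log2 change of -0.45 ± 0.06 SE, adjusted p = 9.48e-05). Psme2 had 43.0, 44.6 and 50.2 CPM in uLN and 52.6, 52.7 and 47.9 CPM in mLN. Its groups overlapped and it missed the threshold (log2 change of 0.15 ± 0.07 SE, adjusted p = 0.0761), which it passed without uLN replicate 3 (adjusted p = 0.0333) or mLN replicate 3 (adjusted p = 0.0124). The ratio of Psme1 to Psme2 was 1.87, 1.88 and 1.56 in uLN and 1.13, 1.20 and 1.13 in mLN.

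Both Psme2 and Psme2b, a gene named as its copy, have counts that are not whole numbers, so part of their reads were shared with other features. The level of Psme2b, 1.97 to 4.54 CPM, is therefore uncertain. It was not called (adjusted p = 0.429), except without mLN replicate 3 (log2 change of -0.71, adjusted p = 0.0462). With the reads of Psme2 and Psme2b summed, the result was not called either (adjusted p = 0.0790). Psme3, the nuclear activator, had 119.9, 118.6 and 126 CPM in uLN and 93.1, 99.0 and 91.9 CPM in mLN and fell 1.28-fold (log2 change of -0.36 ± 0.05 SE, adjusted p = 9.16e-05). Psme4, known for the breakdown of acetylated histones, rose 1.21-fold. Its levels were 89.9, 86.8 and 92.9 CPM in uLN and 108, 101 and 116 CPM in mLN (log2 change of 0.27 ± 0.06 SE, adjusted p = 0.00171). Psmf1 and Psmd11 also have counts that are not whole numbers, so part of their reads were shared with other features. Psmf1, a regulator that binds the core, fell 1.41-fold, from 33.5 ± 1.25 to 23.7 ± 0.943 CPM (SD, n = 3, adjusted p = 5.97e-05).

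The induced cutting subunits were set beside the standard ones they replace. Psmb8, the counterpart of Psmb5, was at 97.3, 94.8 and 91.5 CPM in uLN and 96.1, 94.2 and 82.8 CPM in mLN and was not called (adjusted p = 0.459). The ratio of Psmb8 to Psmb5 was 3.60, 3.03 and 2.86 in uLN and 4.47, 4.72 and 4.64 in mLN. Psmb9, the counterpart of Psmb6, rose from 25.3 ± 2.24 to 32.3 ± 3.83 CPM (SD, n = 3, adjusted p = 0.00793), and its ratio to Psmb6 went from 0.586 ± 0.0469 to 0.997 ± 0.113 (SD, n = 3). Psmb10 went the other way. It fell from 26.5 ± 1.33 to 6.48 ± 0.562 CPM (SD, n = 3), and its ratio to Psmb7, its counterpart, from 0.753 ± 0.0377 to 0.255 ± 0.00804. The groups did not overlap in any of the 3 ratios, and an exact permutation test of 3 against 3 libraries cannot go below a two-sided p of 0.1.

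**Figure D4:**
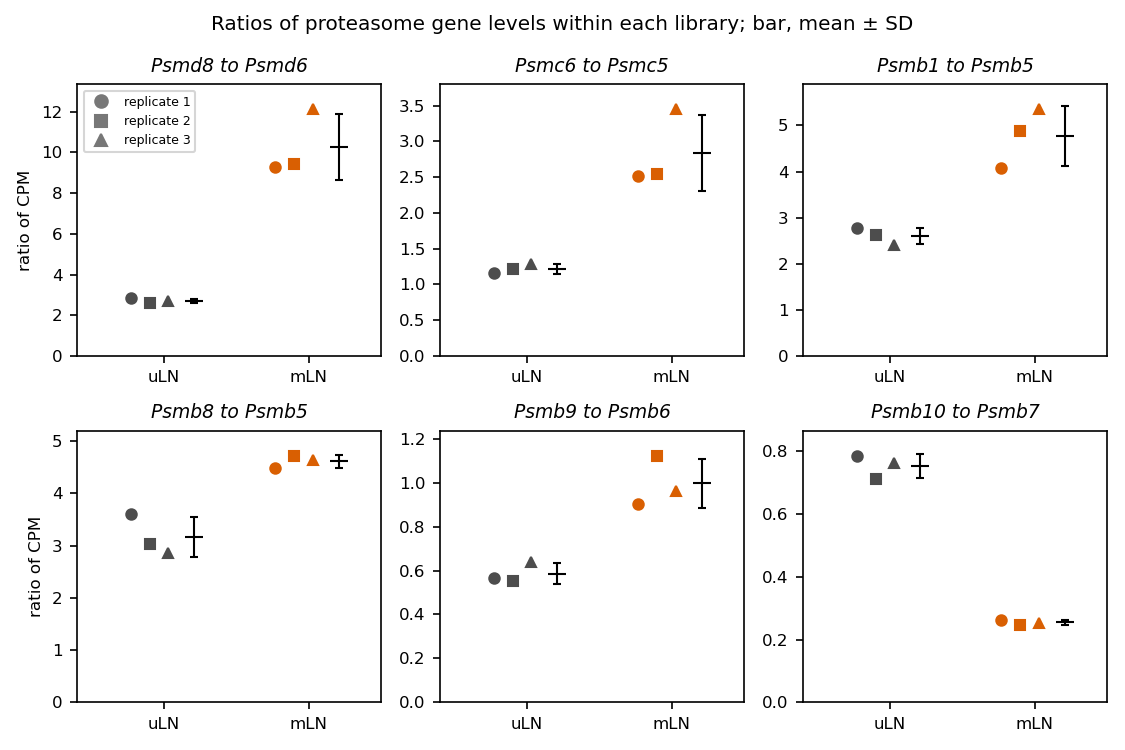
Ratio of the CPM of 2 genes within each library (points, with shapes for the replicate number) with the mean and SD of 3 libraries, each axis starting at 0. The top row pairs subunits of 1 ring or lid that moved apart, such as Psmd8 to Psmd6, which went from a mean of 2.71 to 10.3, and the bottom row sets each induced cutting subunit over the standard one it replaces.

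Levels can be compared between genes only per length of transcript. Over the 7 alpha subunits other than Psma8, the uLN mean per kilobase of the reference transcript ran from 19.1 RPKM for Psma2 to 92.5 for Psma1. Over the 7 beta subunits other than Psmb11 it ran from 30.4 RPKM for Psmb7 to 63.7 for Psmb3. The ATPases ran from 25.1 RPKM for Psmc6 to 48.4 for Psmc3 in uLN, and in mLN from 17.3 for Psmc5 to 29.8 for Psmc1. Psmc5 was thus above Psmc6 in uLN (35.0 against 25.1 RPKM) and below it in mLN (17.3 against 28.4). The assembly factors Psmg1 to Psmg4 were lower, at 6.05 to 14.4 RPKM in uLN. One transcript was used per gene, so these levels depend on its length.

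mLN replicate 3 was often the lowest mLN library for the core genes, and less often for the base and lid. It lay below both other mLN libraries in 26 of the 46 and in 13 of the 16 core genes, beside 42.1% of all tested genes. The same held for 6 of 20 base and lid genes, 3 of 5 activators and 3 of 4 core assembly genes. Without it, 30 proteasome genes were lower and 7 higher in mLN.

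Around the proteasome, genes for its partners moved in both directions. The counts are beside the share of all tested genes that were called, 67.4%. Of 8 tested partners and regulators of the particle, 4 rose and 3 fell. Usp14, a deubiquitinase that trims chains on the particle, rose 1.36-fold, from 48.5 ± 1.41 to 65.8 ± 4.79 CPM (SD, n = 3), and Akirin2, Ecpas and Uchl5 also rose. Adrm1, a ubiquitin receptor, fell, as did Pomp and Psmf1. Ubb, a source of free ubiquitin, fell 1.24-fold, from 2159.6 ± 53.5 to 1743 ± 35.9 CPM (SD, n = 3). Rps27a, which encodes ubiquitin joined to a ribosomal protein, rose 1.30-fold, from 167 ± 4.87 to 217 ± 9.66 CPM (SD, n = 3). Usp14 and Ubb, and Ddi2, Cct7 and Tapbpl below, have counts that are not whole numbers, so part of their reads were shared.

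NFE2L1 is the transcription factor known to raise proteasome genes when the proteasome is inhibited. Its precursor is drawn out of the endoplasmic reticulum by the ATPase VCP, freed of sugars by NGLY1 and cut by the protease DDI2. Of 12 tested genes in a wider list 3 rose and 5 fell, with a median log2 change of 0.03. Besides this route the list holds Nfe2l2, Maff, Mafg, Mafk, Keap1 and Bach1. The 3 that rose were Nfe2l2, Maff and Ddi2. Nfe2l1 had 142, 136 and 135 CPM in uLN and 120.4, 116 and 126 CPM in mLN, and fell 1.14-fold (log2 change of -0.19 ± 0.05 SE, adjusted p = 0.00520). Its relative Nfe2l2, which drives antioxidant genes, had a rise of 1.24-fold, from 213 ± 4.91 to 265 ± 14.6 CPM (SD, n = 3, adjusted p = 0.000229). Ddi2 rose 1.56-fold, from 66.0 ± 2.53 to 103 ± 9.18 CPM, and Vcp fell 1.46-fold, from 441 ± 6.88 to 302 ± 5.69 CPM (SD, n = 3). Ngly1 fell and Sel1l was not called. Of 14 tested substrate shuttles and Vcp cofactors, which also include Ddi2 and Vcp, 4 rose and 6 fell.

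Other large complexes were set beside the proteasome. In the COP9 signalosome, which resembles the lid, 3 of 10 rose and 4 fell (median log2 change of -0.02). Cops5, its catalytic subunit, fell 1.46-fold and Cops2 rose 1.32-fold. In the translation factor eIF3, which shares that architecture too, 5 of 13 rose and 8 fell (median -0.30). Eif3l fell 1.83-fold and Eif3e rose 1.58-fold. In the CCT chaperonin 2 of 8 rose and 4 fell (median -0.10), with Cct7 higher by 1.21-fold and Cct3 lower by 1.46-fold. Downstream of the proteasome, among 14 genes for trimming and loading of peptides on MHC class I, 6 rose and 5 fell (median 0.01). Calr, a loading chaperone, rose 1.75-fold and Tapbpl, a peptide editor, fell from 22.4 ± 0.147 to 7.18 ± 1.56 CPM (SD, n = 3). In each of these lists members moved in both directions, where all tested genes gave 34.2% lower and 33.2% higher. No difference between a list and the proteasome genes was tested.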

How the data were processed

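Per the labels' protocols, RNA came from an RNeasy mini plus kit and libraries from BGI's DNBSEQ mRNA kit. TopHat, cutadapt, FastQC and the build GRCm38 are named in the submitters' processing notes. Versions, the counting tool and its strand setting: not given in the sources used here. Gene-level estimated counts for all 6 libraries are in the table that the authors deposited. Between 32.2% and 32.8% of values were not whole numbers, and counts were rounded for the tests. Of 17891 rows, 1 names no gene and was left out.

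The main test was edgeR 4.0.16 (R 4.3.3), quasi-likelihood, TMM factors and filterByExpr, which kept 12706 genes, with Benjamini-Hochberg adjustment over all of them and calls at an adjusted p under 0.05. The SE is the log2 fold change over the square root of F. RPKM here used CPM and the longest principal protein-coding transcript of GENCODE M21, found for 17223 genes, and coordinates are RefSeq's for GRCm38.p6. The test was first run on simulated data. Alternatives used other scalings and filters, DESeq2 1.42.0, limma-voom 3.58.1, a replicate block and leaving out each library. Members and lists were chosen with earlier results of these data known. Values in each library are given for the cutting subunits, for Psme and Psmg, and in each of Psma to Psmd for up to 2 called genes with the largest rise and 2 with the largest fall. For each other list the called gene with the lowest p in each direction is given with its fold, beside Pomp, Nfe2l1, Nfe2l2 and Psmb8 to Psmb10. Genes named beside these are given for their role. Counts over the list of ubiquitin genes and activating enzymes are not reported here.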

Additional observations from a re-analysis of the deposited data

How the results depend on the processing

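Of the 32 called proteasome genes, 26 kept their call in each of 14 other analyses, and 8 of them also with the coefficient of variation between libraries fixed at 0.2. Leaving out 1 library at a time gave 23 to 30 lower and 4 to 7 higher calls. With that fixed value, chosen after seeing the data, 8 of the 46 tested proteasome genes were lower and 1 higher, beside 15.1% and 16.9% of all tested genes. With the replicate number as a block, 26 were lower and 6 higher. Same-numbered libraries correlated at 0.025, -0.155 and -0.013 in their deviations from the group means, and not each correlated best with its own number. With 3 libraries per group these values cannot decide whether the numbers mark paired libraries, and the labels do not say. DESeq2 gave 24 lower and 5 higher. The direction turned only in genes that were not called, and the cause was not tested. With 1 library left out, log2 changes ran from -0.016 (without mLN replicate 2) to 0.086 for Psma5, from -0.0036 (without uLN replicate 1) to 0.11 for Psmd5, from -0.056 to 0.037 for Psmd3, from -0.066 to 0.074 for Psmg2 and from -0.094 to 0.013 (without mLN replicate 3) for Psmb8. Psmd3 was -0.026 with no filter, -0.056 without uLN replicate 2 and -0.0033 without mLN replicate 1. Psmg2 was -0.024 with no filter, -0.00039, -0.012 and -0.066 without uLN replicates 1 and 3 and mLN replicate 2, and -9.6e-05 with limma-voom. Depth limits Psmg3 (41 to 111 reads per library) and Psma8 (8 to 15).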
